A study of Homo sapiens with 9 samples.

Results

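The 41 genes described here encode proteins of the centromere, the kinetochore, the spindle assembly checkpoint and the mitotic kinesins. They were chosen by name from the 54562 genes of the expression table, after CENPE had been seen at a much lower level in cells with the Long plasmid than in cells with the empty vector. All 41 were found by symbol, and all 41 had a mean of at least 1 FPKM, so none was lost to the filter that left 13801 genes for testing. Because values of Long and EV led to the choice, that comparison is given below as a description. HEK293, an established cell line from human embryonic kidney, was transiently transfected with a lipid reagent. The EV group received the empty vector, the Short group received a pCMV6 plasmid coding for the ADARB1 isoform that skips the *Alu* exon, and the Long group received the plasmid for the isoform that includes it. ADARB1 is an adenosine deaminase that edits double-stranded RNA. All cells were collected 48 hours after transfection, and the experiment was repeated in 3 cell passages, which gave 3 libraries a group and 9 in all. ADARB1 is driven here by a plasmid in a single cell line, so its level is far from that of the untransfected gene. ADARB1 lay between 7.66 and 8.61 FPKM in EV and at 1695 FPKM or more in the 6 libraries labelled as carrying an ADARB1 plasmid. FPKM is the number of fragments per kilobase of transcript length, relative to all mapped fragments of the library, and it sets genes of different length on 1 scale. The FPKM of all genes summed to between 517170 and 589535 per library. Fragment totals are not given, and steps among the lowest values put the depth of the libraries between 0.993 and 1.21 times that of EV of passage 1. Of the markers of the cell line, VIM lay at 132 FPKM or more, NEFM at 48.6 FPKM or more and PAX2 at 1.73 FPKM or more, whereas KRT5 was listed at 0 and PTPRC, CD3E and ALB stayed at or under 0.326 FPKM. COL1A1, listed among markers of other cells, lay between 9.10 and 12.9 FPKM.

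The kinetochore is the protein assembly that joins each chromosome to spindle microtubules in mitosis. Its inner part sits on nucleosomes that contain CENPA, its outer part holds the NDC80 complex that grips the microtubule, and the checkpoint proteins on it hold back anaphase until every chromosome is attached. Many of these genes are transcribed mainly in G2 and mitosis, so in a dividing culture such as HEK293 their mRNA levels also follow the share of cells in those phases. In RNA from whole cultures, fewer cells in mitosis and less mRNA per cell cannot be told apart.

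By role, the members were the centromere nucleosome gene CENPA, 13 inner kinetochore genes (CENPC, CENPH, CENPI, CENPK, CENPL, CENPM, CENPN, CENPO, CENPP, CENPQ, CENPT, CENPU and CENPW), the NDC80 complex (NDC80, NUF2, SPC24 and SPC25), the MIS12 complex (MIS12, DSN1, NSL1 and PMF1), ZWINT, ZW10 and KNTC1, 6 checkpoint genes (BUB1, BUB1B, BUB3, MAD1L1, MAD2L1 and TTK), the chromosomal passenger genes (AURKB, INCENP, BIRC5 and CDCA8), the outer corona gene CENPF, 4 kinesins (CENPE, KIF11, KIF18A and KIF2C) and CENPJ. CENPJ, despite its name, is a centriole protein. In EV their mean levels ran from 6.58 FPKM for CENPC to 116 FPKM for BUB3, which is above 33.4% of the genes tested for the lowest member and above 95.5% for the highest.

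The members differed in how rich their transcripts were in G and C, from 32.8% to 62.6%, and this property returns beside the results below. For 7 of them, 100 bases from the centre of the longest coding exon are printed 5′ to 3′ in the direction of the gene, with every G and C in capitals, read from GRCh37 with the GENCODE annotation lifted to that build. The first 4 (CENPE, CENPF, KIF18A and NUF2) belong to genes with lower levels in the plasmid libraries, and the last 3 (SPC25, KIF2C and SPC24) to genes without such a pattern. They were picked after the values were seen.
CENPE: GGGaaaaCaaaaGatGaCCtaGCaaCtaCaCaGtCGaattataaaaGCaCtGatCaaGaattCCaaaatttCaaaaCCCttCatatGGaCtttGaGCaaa
CENPF: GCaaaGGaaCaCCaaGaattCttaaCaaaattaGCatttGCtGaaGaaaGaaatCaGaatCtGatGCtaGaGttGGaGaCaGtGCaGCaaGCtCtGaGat
KIF18A: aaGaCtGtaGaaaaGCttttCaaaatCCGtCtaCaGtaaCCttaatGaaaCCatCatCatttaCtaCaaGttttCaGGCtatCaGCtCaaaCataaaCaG
NUF2: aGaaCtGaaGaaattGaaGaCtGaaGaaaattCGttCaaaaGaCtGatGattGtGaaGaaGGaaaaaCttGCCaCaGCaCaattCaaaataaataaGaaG
SPC25: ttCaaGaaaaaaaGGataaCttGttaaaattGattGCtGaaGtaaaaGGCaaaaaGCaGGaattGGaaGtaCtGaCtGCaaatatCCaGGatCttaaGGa
KIF2C: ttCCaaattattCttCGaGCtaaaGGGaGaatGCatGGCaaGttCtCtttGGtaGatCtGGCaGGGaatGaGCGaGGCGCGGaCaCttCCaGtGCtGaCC
SPC24: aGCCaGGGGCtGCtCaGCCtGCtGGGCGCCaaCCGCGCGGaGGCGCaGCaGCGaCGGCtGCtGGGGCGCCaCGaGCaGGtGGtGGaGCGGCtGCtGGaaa
The stretch of CENPE lies at chr4:104080274-104080373 on the minus strand (exon 22 of 49), that of CENPF at chr1:214814916-214815015 on the plus strand (exon 12 of 20) and that of KIF18A at chr11:28057938-28058037 on the minus strand (exon 14 of 17). NUF2 was read at chr1:163317591-163317690 on the plus strand (exon 12 of 14), SPC25 at chr2:169733771-169733870 on the minus strand (exon 4 of 7), KIF2C at chr1:45226004-45226103 on the plus strand (exon 15 of 21) and SPC24 at chr19:11266323-11266422 on the minus strand (exon 1 of 5). G and C made up 35% of the bases shown for CENPE, 39% for CENPF, 34% for KIF18A and 32% for NUF2. The same share was 33% for SPC25, 50% for KIF2C and 74% for SPC24, so SPC25 is close to its partner NUF2 in this respect.

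The first question was whether the Short plasmid, whose libraries had no part in the choice of genes, changed these genes against EV. None of the 41 passed limma's test with Benjamini-Hochberg adjustment over all genes (adjusted p of at least 0.110), where 5 of 13801 genes (0.0362%) passed, 0.00725% lower and 0.029% higher. At an unadjusted p under 0.05 the same tool gave 19 of the members (46.3%), 13 lower and 6 higher, beside 22.0% of all genes. The 13 lower ones were CENPC, CENPE, CENPF, CENPJ, CENPK, CENPQ, CENPU, KIF11, KIF18A, KNTC1, MAD2L1, NUF2 and TTK, and the 6 higher ones were AURKB, BIRC5, CENPM, CENPO, INCENP and PMF1. No alternative in the fit gave a member past the adjusted threshold. In all 3 passages 15 members were lower in Short (13.4% of all genes were) and 10 were higher (32.0% of all genes). The libraries of Short lay wholly below those of EV for MAD2L1 (2.11% of all genes) and wholly above them for CENPM and CENPO (10.9%). The median log2 fold change over the 41 genes was -0.01, beside 0.04 over all genes tested. This comparison shares the EV libraries with the one that led to the choice.

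Long was next compared with Short, which asks whether both isoforms left these genes at different levels. Again 0 of the 41 members passed (adjusted p of at least 0.547 from limma), and 1 gene of 13801 did (0.00725%). An unadjusted p under 0.05 from limma was reached by 9 members (22.0%), all lower in Long, beside 7.54% of all genes. They were CENPE, CENPF, CENPK, CENPU, KIF11, KIF18A, NDC80, NUF2 and TTK. CENPE stands there as a description only, because its Long libraries led to the choice of genes, and nothing is read from the count of 9. In all 3 passages 12 members were lower in Long than in Short (18.5% of all genes) and 1 was higher (10.2% of all genes). CENPA alone had all Long libraries below all Short libraries (1.91% of all genes), and no member had the reverse (1.92%). These values share the Long libraries with the comparison that led to the choice. ADARB1 itself was 1889, 4145 and 2735 FPKM in passages 1, 2 and 3 of Short and 1695, 3449 and 2080 FPKM in those of Long. It was thus lower in Long in each passage, and the part of this difference in level was not tested.

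The comparison of Long with EV led to the choice of genes, so its values are a description and the calls of the fit over all genes are no test of the members. That fit placed 13 of the 41 past the adjusted threshold (8.32% of all genes), all lower in Long (6.33% of all genes were called lower and 1.99% higher), and nothing is read from this count. They were CENPC, CENPE, CENPF, CENPJ, CENPK, CENPQ, CENPU, KIF11, KIF18A, MAD2L1, NDC80, NUF2 and TTK. The count was 0 without passage 1, 4 without passage 2 and 10 without passage 3. MAD2L1, with a log2 fold change of -0.23, lay just inside the threshold and KNTC1, with -0.33, just outside. In all 3 passages 16 members were lower in Long (18.1% of all genes) and 13 were higher (27.4% of all genes). The Long libraries lay wholly below EV for CENPE, CENPK and KNTC1 (3.14% of all genes) and wholly above for CENPM, CENPO and PMF1 (10.5%). The median over the 41 log2 fold changes was 0.015 (0.04 over all genes), and it became -0.059 with FPKM rescaled to an equal sum and -0.023 with median-ratio scaling. The heat map of the 41 genes sets these ratios beside GC content.

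**Figure D1:**
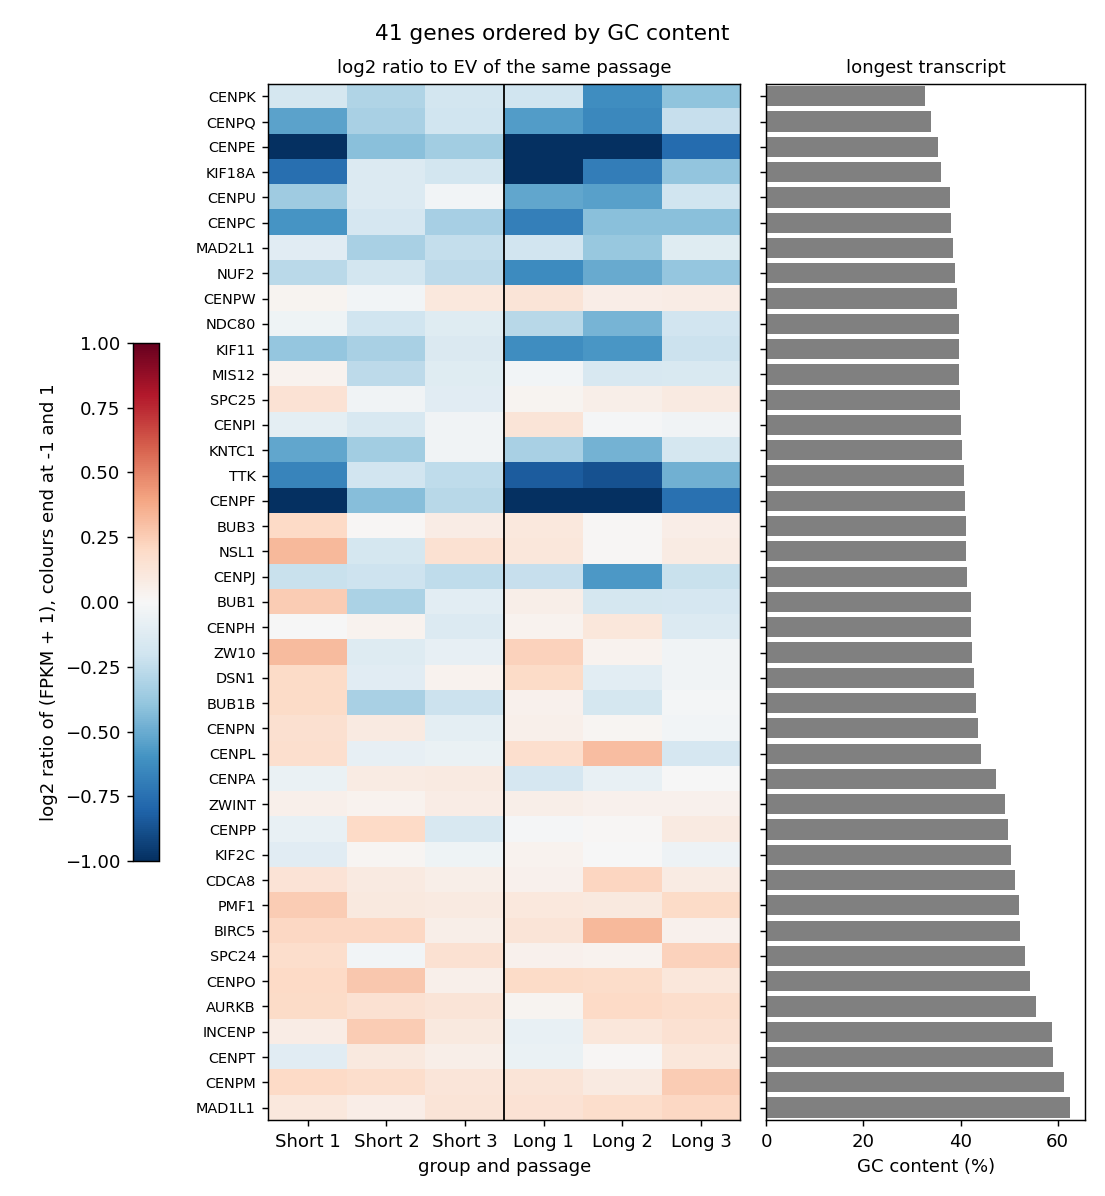
Log2 ratios of (FPKM + 1) to EV of the same passage for the 41 genes (lines of the map, ordered by GC content with the lowest at the top) in the 3 Short and 3 Long libraries (columns), with the GC content of the longest transcript in percent as bars at the right. Blue is lower and red is higher than EV, and colours end at -1 and 1; the end of the blue scale is reached by CENPE and CENPF in passage 1 of Short and passages 1 and 2 of Long, and by KIF18A in passage 1 of Long.

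CENPE, a kinesin that carries chromosomes to the spindle equator, was the lowest member in relation to EV. The gene (ENSG00000138778) spans chr4:104026506-104119602 on the minus strand of GRCh37, and its longest annotated transcript has 8742 nt, 8103 nt of them coding, with 35.4% GC. In the order of passages 1, 2 and 3, which holds for every series of values here, CENPE was 13.2, 9.68 and 16.8 FPKM in EV, 2.81, 7.01 and 12.98 in Short and 1.60, 1.82 and 9.40 in Long. Every Long library lay below every EV library, whereas Short overlapped EV through passage 3. Means with SD over n = 3 libraries were 13.2 ± 3.54 FPKM for EV, 7.60 ± 5.11 for Short and 4.27 ± 4.44 for Long. Long therefore kept 12.1%, 18.8% and 56.1% of the EV level of its passage, and Short 21.4%, 72.4% and 77.5%. In passages 1 and 2 of Long, 0 of the other genes tested had a lower log2 ratio to EV, and in passage 3 there were 24. For Short the number of genes with a lower ratio was 2, 699 and 300, so the position of CENPE at the bottom of the list held in passage 1 and not in the others. On the log2(FPKM + 1) scale, which understates changes at low levels, Short against EV was -0.88 (standard error 0.29) with an adjusted p of 0.132 from limma. Long against Short was -0.83 (standard error 0.29), given without a test because CENPE in the Long libraries led to the choice of genes. Leaving out passage 1 took the Short against EV value to -0.38, and leaving out passage 2 took the Long against Short value to -0.49. For Long against EV the value was -1.71, between -1.35 without passage 1 and -2.18 without passage 3.

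CENPF, a very large coiled-coil protein of the outer kinetochore, followed CENPE closely. Its gene (ENSG00000117724) lies at chr1:214776528-214837917 on the plus strand, with a transcript of 10290 nt, a coding length of 9342 nt and 40.8% GC. CENPF was 38.7, 29.01 and 57.5 FPKM in EV, 11.9, 21.4 and 47.2 in Short and 7.87, 7.91 and 33.8 in Long. Both plasmid groups were lower than EV within every passage, and passage 3 was the highest in each group, so that Long of passage 3 lay above EV of passage 2. Of the EV level, Long kept 20.3%, 27.3% and 58.9% and Short 30.7%, 73.7% and 82.1%. The log2 fold change was -0.78 (standard error 0.24) for Short against EV, with an adjusted p of 0.124 from limma, and -0.78 (standard error 0.24) for Long against Short, with an adjusted p of 0.547 from limma. Without passage 1 the value for Short against EV was -0.35, and without passage 2 that for Long against Short was -0.50.

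The other kinesins divided. KIF18A, which dampens chromosome movements at the plus ends of microtubules, was 6.70, 5.57 and 8.87 FPKM in EV, 3.56, 4.97 and 7.71 in Short and 2.78, 3.07 and 6.52 in Long. KIF11, which slides microtubules apart to make the spindle bipolar, was 26.8, 25.7 and 36.6 FPKM in EV, 20.3, 20.3 and 32.97 in Short and 17.1, 16.8 and 31.5 in Long. For both, each plasmid library was below the EV library of its passage while the groups overlapped, and the log2 fold changes for Short against EV were -0.36 (standard error 0.13) and -0.28 (standard error 0.08) with adjusted p of 0.155 and 0.110 from limma. KIF2C, which depolymerises microtubules and corrects wrong attachments, was 41.1, 42.4 and 37.4 FPKM in EV, 37.8, 43.02 and 36.2 in Short and 42.1, 42.3 and 35.98 in Long. KIF2C showed no such order, with a log2 fold change of -0.05 (standard error 0.06) for Short against EV and 0.04 (standard error 0.06) for Long against Short.

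**Figure D2:**
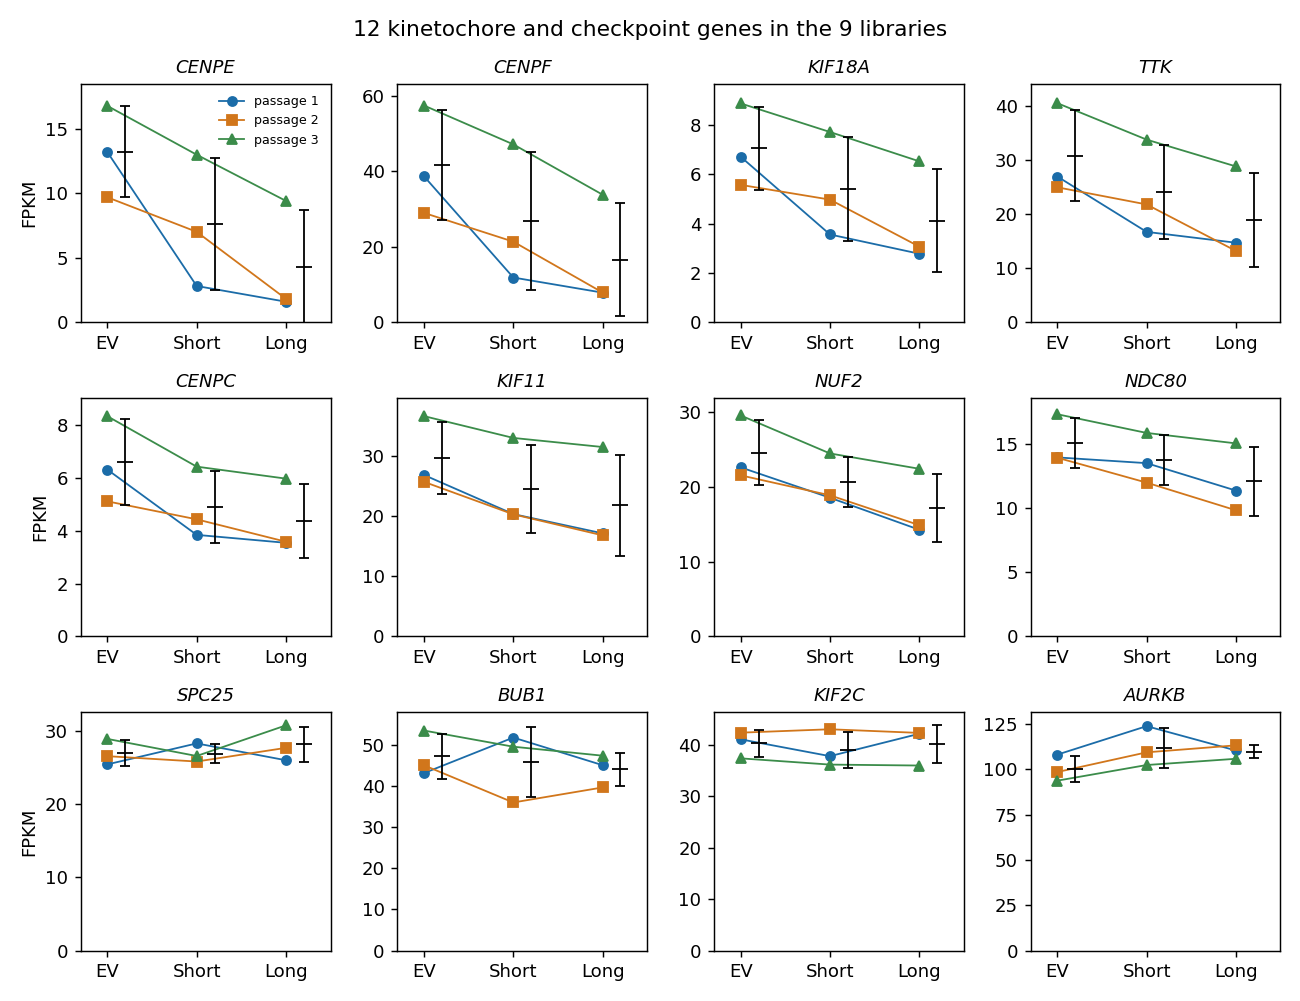
FPKM (vertical axis, from 0) of 12 members in EV, Short and Long, with 1 coloured line and marker for each cell passage and the mean with its SD (n = 3) in black at the right of each group; the SD bar of CENPE in Long is cut at 0. CENPE goes from 13.2 through 2.81 to 1.60 FPKM in passage 1 but ends at 9.40 FPKM in passage 3, and SPC25, BUB1, KIF2C and AURKB have no common downward slope.

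Of the 13 inner kinetochore genes, 5 were lower in Short than in EV in every passage and 2 were higher, and 4 were lower and 3 higher in Long. CENPA, the histone variant that marks the centromere, was 24.8, 22.1 and 20.8 FPKM in EV, 23.7, 23.4 and 22.2 in Short and 22.05, 20.9 and 20.7 in Long. Its groups overlapped between EV and Short, its log2 fold change for Long against Short was -0.12 (standard error 0.06) with an adjusted p of 0.733 from limma, and it overlaps SLC35F6 on the same strand, so fragments of both genes may be mixed. CENPC, which binds that nucleosome and recruits the outer kinetochore, was 6.31, 5.11 and 8.33 FPKM in EV, 3.84, 4.43 and 6.43 in Short and 3.54, 3.59 and 5.97 in Long. CENPC was lower with either plasmid in each passage, and the value for Short against EV was -0.36 (standard error 0.10) with an adjusted p of 0.110 from limma. CENPQ was 8.09, 9.03 and 10.7 FPKM in EV, 5.25, 7.001 and 9.18 in Short and 5.16, 5.41 and 8.94 in Long. CENPU was 54.5, 55.4 and 68.3 FPKM in EV, 42.3, 50.4 and 67.1 in Short and 37.7, 37.6 and 59.3 in Long. CENPO was 19.4, 20.2 and 19.95 FPKM in EV, 22.4, 24.4 and 20.7 in Short and 22.2, 23.02 and 21.6 in Long. These 3 are subunits of 1 inner kinetochore subcomplex, and they went opposite ways: the log2 fold change for Short against EV was -0.35 (standard error 0.10) for CENPQ, -0.17 (standard error 0.08) for CENPU and 0.17 (standard error 0.06) for CENPO, none past the adjusted threshold. CENPK was 25.9, 29.5 and 32.8 FPKM in EV, 22.9, 23.7 and 28.8 in Short and 22.4, 18.8 and 24.6 in Long. Its partner CENPH was 58.3, 50.8 and 44.7 FPKM in EV, 58.3, 52.1 and 40.6 in Short and 59.7, 54.9 and 40.6 in Long. CENPK was lower than EV in every plasmid library of its passage, while CENPH was nearly level within each passage and was highest in passage 1 and lowest in passage 3 in all groups. CENPM was 30.8, 30.7 and 28.8 FPKM in EV, 35.6, 34.8 and 31.5 in Short and 33.9, 32.7 and 34.5 in Long, above EV in each plasmid library. The other inner members (CENPI, CENPL, CENPN, CENPP, CENPT and CENPW) had log2 fold changes between -0.10 and 0.05 for Short against EV. CENPJ, the centriole protein, was 17.03, 17.5 and 22.8 FPKM in EV, 14.5, 15.04 and 18.96 in Short and 14.3, 11.4 and 19.4 in Long, lower with either plasmid in each passage.

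The NDC80 complex holds its 4 subunits in equal number, NDC80 with NUF2 at the microtubule end and SPC24 with SPC25 at the other. NDC80 was 13.9, 13.9 and 17.3 FPKM in EV, 13.5, 11.97 and 15.8 in Short and 11.4, 9.82 and 15.03 in Long. NUF2 was 22.6, 21.5 and 29.5 FPKM in EV, 18.5, 18.9 and 24.5 in Short and 14.3, 14.9 and 22.4 in Long. Both were lower in Long than in Short and lower in Short than in EV within each passage, with overlap between the groups. SPC24 was 33.8, 38.3 and 28.2 FPKM in EV, 38.2, 37.6 and 31.5 in Short and 34.8, 39.3 and 33.2 in Long. SPC25 was 25.4, 26.5 and 28.9 FPKM in EV, 28.3, 25.8 and 26.6 in Short and 25.99, 27.7 and 30.7 in Long. Neither had this order, and their log2 fold changes for Short against EV were 0.10 (standard error 0.07) and -0.00 (standard error 0.07), beside -0.12 (standard error 0.07) for NDC80 and -0.24 (standard error 0.07) for NUF2. The ratio of NUF2 to SPC25 within a library removes whatever scales both genes alike, and was 0.889, 0.811 and 1.02 in EV, 0.655, 0.731 and 0.920 in Short and 0.549, 0.537 and 0.729 in Long. It was lower in Short than in EV in each passage, although a two-sided exact test by permutation returned p = 0.3 over libraries and p = 0.25 over passages, where 0.25 is the smallest p that 3 pairs allow. For Long against Short the exact test gave p = 0.2 over libraries and p = 0.25 over passages. NDC80 to SPC25 was 0.548, 0.524 and 0.598 in EV, 0.477, 0.464 and 0.596 in Short and 0.437, 0.355 and 0.489 in Long, with exact permutation p = 0.3 for Short against EV. SPC24 to SPC25 gave exact permutation p = 0.6 for the same groups, with means of 1.25 in EV, 1.33 in Short and 1.28 in Long. All 14 ratios computed between partners, of which the plot of partner ratios shows 4, had exact p of at least 0.1 over libraries. That is the smallest p that 3 libraries against 3 allow, so no ratio could pass, and the ratios share libraries and genes. BUB1 to BUB1B was at this smallest exact p both for Short against EV and for Long against Short, and its Short libraries lay wholly above the others.

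**Figure D3:**
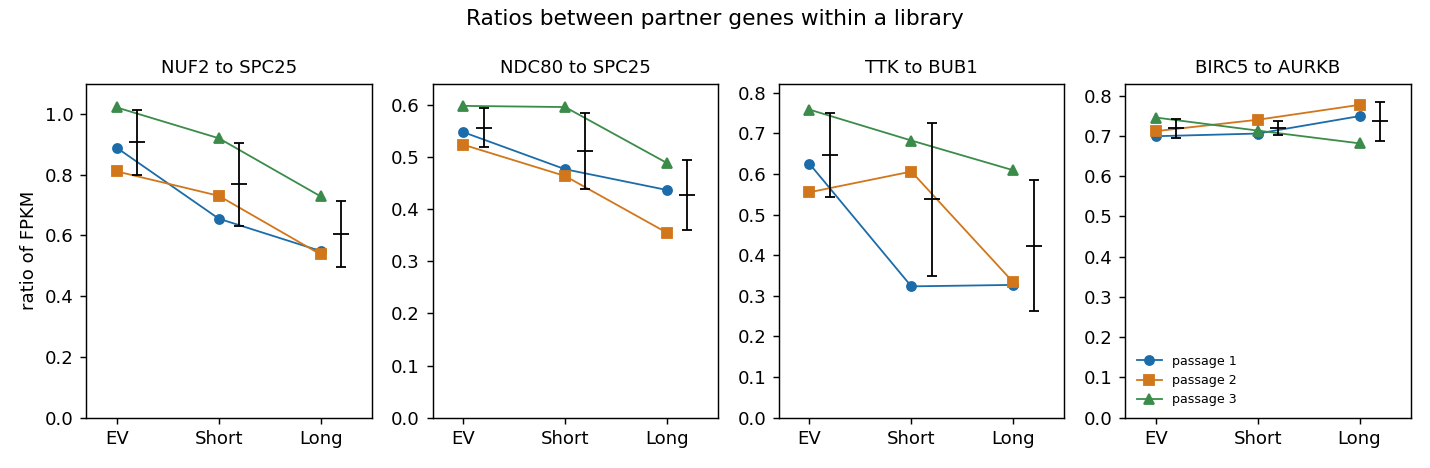
Ratio of FPKM within a library (vertical axis, no unit, from 0) for NUF2 to SPC25, NDC80 to SPC25, TTK to BUB1 and BIRC5 to AURKB in EV, Short and Long, with lines joining the libraries of 1 passage and the mean with its SD (n = 3) in black. NUF2 to SPC25 has means of 0.907, 0.769 and 0.605, while BIRC5 to AURKB stays at 0.719, 0.720 and 0.736.

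The MIS12 complex, which links the inner kinetochore to NDC80, moved little. MIS12 was 16.6, 19.3 and 19.8 FPKM in EV, 16.9, 15.96 and 18.2 in Short and 16.2, 17.2 and 17.8 in Long. DSN1 was 20.8, 21.9 and 23.1 FPKM in EV, 23.9, 20.2 and 23.7 in Short and 23.8, 20.3 and 22.5 in Long. NSL1 was 16.5, 18.9 and 22.6 FPKM in EV, 20.9, 16.6 and 25.3 in Short and 17.97, 19.03 and 24.0 in Long. Their groups overlapped in every comparison, and NSL1, with the longest transcript of all members (13115 nt, of which 843 nt are coding), had log2 fold changes of 0.10 (standard error 0.09) for Short against EV and -0.03 (standard error 0.09) for Long against Short. PMF1 was 38.1, 36.8 and 35.03 FPKM in EV, 45.5, 39.5 and 37.4 in Short and 40.98, 39.4 and 40.2 in Long. It was above EV in each plasmid library of its passage, with a log2 fold change of 0.15 (standard error 0.06) for Short against EV and an adjusted p of 0.196 from limma, and it overlaps another annotated gene on its strand. ZWINT, which ties the RZZ complex to the outer kinetochore, was 97.1, 104 and 106 FPKM in EV, 101, 106 and 112 in Short and 101, 107 and 109 in Long. ZW10 and KNTC1 are subunits of RZZ, which brings dynein and the checkpoint proteins to the kinetochore. ZW10 was 12.2, 12.7 and 17.8 FPKM in EV, 15.4, 11.6 and 16.8 in Short and 14.4, 13.05 and 17.3 in Long. KNTC1 was 32.9, 31.99 and 34.1 FPKM in EV, 22.6, 24.9 and 33.2 in Short and 26.1, 22.8 and 30.03 in Long. KNTC1, with a coding length of 6627 nt, was lower with either plasmid in every passage, and its log2 fold change for Short against EV was -0.30 (standard error 0.09) with an adjusted p of 0.117 from limma, whereas that of ZW10 was 0.03 (standard error 0.09).

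The checkpoint genes showed 3 kinds of pattern. TTK, the kinase that starts checkpoint signalling, was 26.95, 24.96 and 40.5 FPKM in EV, 16.7, 21.8 and 33.8 in Short and 14.7, 13.2 and 28.8 in Long. MAD2L1, the inhibitor that binds CDC20, was 81.8, 82.01 and 93.9 FPKM in EV, 75.5, 65.5 and 79.2 in Short and 71.6, 62.8 and 86.3 in Long. Both were lower with either plasmid in each passage, by -0.37 (standard error 0.11) and -0.23 (standard error 0.06) on the log2 scale for Short against EV, with adjusted p of 0.115 and 0.110 from limma. BUB1, a kinase that marks the inner centromere, was 43.1, 44.98 and 53.4 FPKM in EV, 51.7, 35.97 and 49.5 in Short and 45.02, 39.6 and 47.3 in Long. BUB1B, which blocks the anaphase-promoting complex, was 31.7, 32.3 and 41.2 FPKM in EV, 36.3, 25.5 and 35.3 in Short and 32.8, 28.4 and 40.6 in Long. These related genes were higher in Short than in EV in passage 1 and lower in the other 2 passages, and their ratio had means of 1.35, 1.41 and 1.31 in EV, Short and Long. BUB3, which brings them to the kinetochore, was 109, 119 and 120.2 FPKM in EV, 125, 120.0 and 127 in Short and 117, 120.0 and 126 in Long. MAD1L1, the anchor of MAD2L1, was 11.8, 13.1 and 10.9 FPKM in EV, 12.7, 13.7 and 12.03 in Short and 13.1, 14.9 and 12.8 in Long. Both were above EV in every plasmid library of their passage, by 0.10 (standard error 0.05) and 0.10 (standard error 0.06) for Short against EV, and neither passed. The ratio of TTK to BUB1 was 0.625, 0.555 and 0.758 in EV, 0.323, 0.606 and 0.682 in Short and 0.327, 0.333 and 0.609 in Long, with exact permutation p = 0.5 over libraries for Short against EV.

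The chromosomal passenger complex, in which the kinase AURKB works with INCENP, survivin (BIRC5) and borealin (CDCA8), lay slightly above EV in Short, and no member passed. AURKB was 108, 98.6 and 93.8 FPKM in EV, 124, 109 and 102 in Short and 110.5, 113 and 106 in Long. BIRC5 was 75.7, 70.2 and 69.97 FPKM in EV, 87.5, 81.02 and 73.1 in Short and 82.8, 88.1 and 72.2 in Long. All 4 members were higher in Short than in EV in each of the 3 passages, and 3 of the 4 were in Long. The other members above EV in every Short library of their passage were CENPM, CENPO, PMF1, ZWINT, BUB3 and MAD1L1. INCENP was 65.7, 49.98 and 49.97 FPKM in EV, 69.3, 59.8 and 53.4 in Short and 62.2, 54.2 and 55.6 in Long. CDCA8 was 29.3, 27.5 and 26.97 FPKM in EV, 32.3, 29.4 and 28.1 in Short and 30.2, 32.2 and 28.6 in Long. The log2 fold changes for Short against EV were small, from 0.09 to 0.16, with adjusted p of 0.143 for AURKB, 0.171 for BIRC5, 0.222 for INCENP and 0.388 for CDCA8 from limma, and 32.0% of all genes were higher in Short in each passage. These values depended on the processing, and the GC and length correction took AURKB from 0.16 to 0.05, BIRC5 from 0.16 to 0.07 and INCENP from 0.14 to 0.02. BIRC5 and AURKB had ratios of 0.699, 0.712 and 0.746 in EV, 0.706, 0.740 and 0.713 in Short and 0.749, 0.777 and 0.682 in Long, with exact permutation p = 0.9 for Short against EV.

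The cell passage, which played no part in the choice of genes, gave more calls among them than any comparison of plasmids. Between passages, with the group in the fit, 22 of the 41 members (53.7%) passed limma's F test at an adjusted p under 0.05, beside 36.4% of all genes. They were BUB1, BUB1B, CENPC, CENPE, CENPF, CENPH, CENPJ, CENPK, CENPQ, CENPU, INCENP, KIF11, KIF18A, KIF2C, KNTC1, MAD2L1, NDC80, NSL1, NUF2, SPC24, TTK and ZW10. Passage 3 had the highest mean in 18 of the 22, which is 81.8%, whereas 45.2% of the 5028 genes that passed among all had their highest mean there, and it had the lowest mean in 4, namely CENPH, INCENP, KIF2C and SPC24. The adjusted p of the F test from limma was 5.07e-04 for KIF11, 7.05e-04 for TTK, 8.42e-04 for CENPH, 0.00116 for NUF2 and 0.00854 for CENPE. KIF11 had means over the 3 libraries of a passage of 21.4, 20.9 and 33.7 FPKM, TTK of 19.5, 19.99 and 34.4 FPKM and CENPF of 19.5, 19.4 and 46.2 FPKM. CENPH went the other way, with 58.8, 52.6 and 41.99 FPKM. Without passage 3, 0 members passed, with 30 genes of all those tested. The passage of the cells and anything else that differed between the 3 rounds of the experiment cannot be told apart.

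Long transcripts were then set against short ones, by a division at the members' median of the longest annotated transcript, 2955 nt. For Short against EV the median log2 fold change was -0.11 over the 20 longer members and 0.03 over the 21 others, and 13 and 9 of them had a value below 0. The same division of all genes gave 0.02 and 0.07. For Long against EV the medians were -0.07 and 0.05, beside 0.02 and 0.06 over all genes, and for Long against Short they were -0.03 and -0.01. Transcript length did not sort the members cleanly. NSL1 (13115 nt), CENPP (8293 nt), BUB3 (7703 nt) and CENPI (5584 nt) are long, and their log2 fold changes for Long against EV were 0.07, 0.03, 0.06 and 0.03. CENPK (1731 nt), CENPQ (1741 nt) and NUF2 (1964 nt) are short, with -0.41, -0.48 and -0.51. Divided at the median coding length of 1068 nt, the medians for Short against EV were -0.15 above it and 0.05 for the others, and for Long against EV -0.32 and 0.06, beside 0.03 and 0.06 over all genes.

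GC content sorted the members more sharply than length did, in a division made after the values were seen and given as a description. At the members' median of 42.1% GC, 18 of the 21 members not above it and 4 of the 20 above it had a value below 0 for Short against EV, with medians of -0.23 and 0.05. For Long against EV these counts were 16 and 3, with medians of -0.34 and 0.07. All genes tested had medians of the same signs at this division, -0.09 and 0.08 for Short against EV and -0.13 and 0.07 for Long against EV. Across genes, which are not independent replicates and share their libraries, Spearman's rho of the log2 fold change with GC content was 0.80 over the 41 members and 0.62 over all genes for Short, and 0.76 and 0.52 for Long. With coding length it was -0.54 over the members and -0.15 over all genes for Short, and -0.50 and -0.13 for Long. The 13 members both at or below the median in GC and above it in coding length were all below 0 for Short against EV (median -0.28, beside -0.12 for the 2265 genes of that kind) and 12 of 13 for Long against EV (median -0.47, beside -0.19). The 8 members low in GC with a shorter coding length had medians of -0.06 and -0.03. Within these 8 the values for Long against EV ran from -0.48 for CENPQ, through -0.41 for CENPK and -0.23 for MAD2L1, to 0.06 for SPC25 and 0.09 for CENPW.

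**Figure D4:**
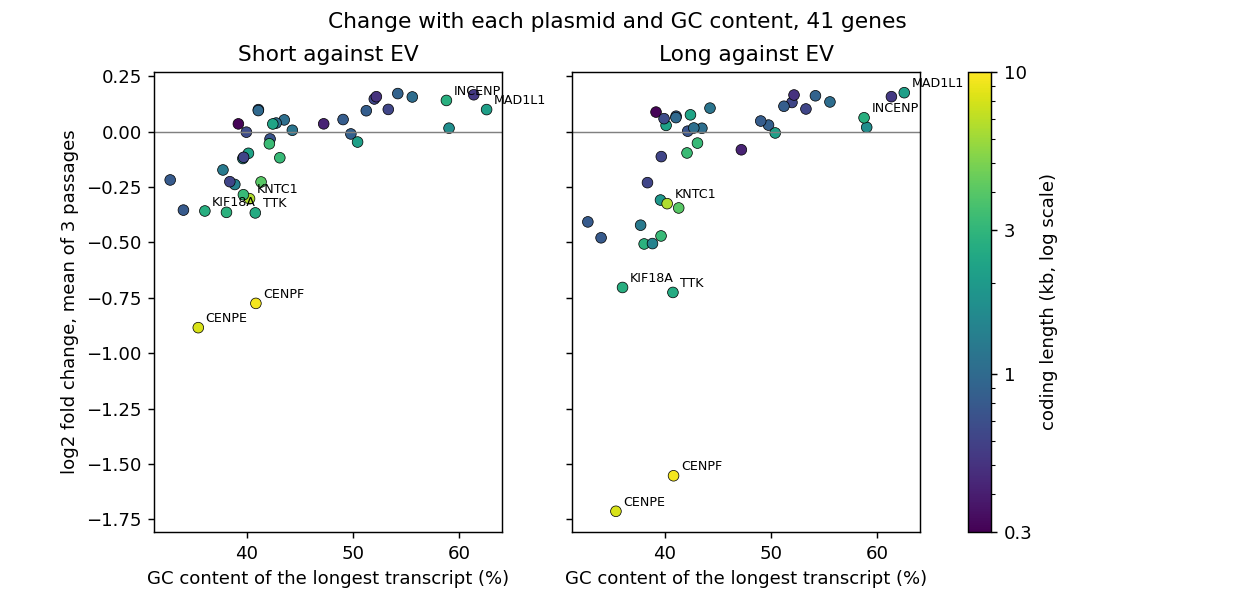
Log2 fold change against EV (vertical axis, mean of the 3 passages) and GC content of the longest transcript in percent (horizontal axis) for the 41 genes in Short (left) and Long (right), with coding length in kb on a logarithmic colour scale. CENPE (-0.88 in Short, -1.71 in Long) and CENPF lie far below the other members, and members above 42.1% GC lie between -0.12 and 0.18.

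The libraries themselves differed in GC content over all genes. Each gene was centred on its mean log2 level, and the median of the highest GC quartile of the genes tested was taken from that of the lowest. This difference was 0.01, 0.09 and 0.39 in EV, -0.12, -0.30 and 0.21 in Short and -0.12, -0.30 and 0.17 in Long. Passage 3 had the highest value in each group and also the highest CENPE. In each passage both plasmid groups had lower values than EV and also lower CENPE. Between passages 1 and 2 the order was reversed. From passage 1 to passage 2 the GC value rose and CENPE fell in EV, while the GC value fell and CENPE rose in Short and Long. Short and Long of passage 2 had the same GC value, -0.30, with CENPE at 0.07 and -1.43 around its mean. After a correction of each library for GC content, the log2 fold change of CENPE was -0.70 for Short against EV, -0.70 for Long against Short and -1.39 for Long against EV, and that of CENPF was -0.71, -0.74 and -1.45. With that correction 2 members (CENPF and TTK) were past the threshold for Long against EV in place of 13. Over all genes, 164 of 13801 passed there in place of 1148. Between passages 12 of the 41 members passed in place of 22, beside 4133 of 13801 genes in place of 5028. The part of GC content in these results was not tested beyond this correction.

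**Figure D5:**
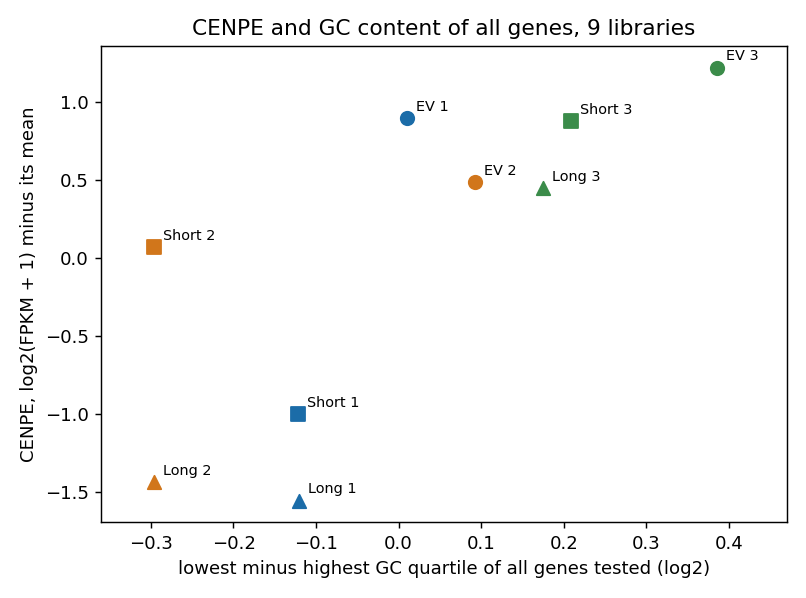
CENPE as log2(FPKM + 1) minus its mean over the 9 libraries (vertical axis) against the difference between the lowest and highest GC quartile of all genes tested (horizontal axis, log2), 1 point a library with passages by colour and groups by marker. The 3 EV libraries and the libraries of passage 3 lie at the upper right, with EV of passage 3 at 0.39 and 1.22. The other 4 libraries lie at horizontal values of -0.12 and -0.30 and at vertical values from -1.56 (Long of passage 1) to 0.07 (Short of passage 2).

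Since many genes of this kind are transcribed together in the cell cycle, their promoters were searched for a pair of motifs known from such genes. RefSeq promoters of GRCh38.p14 (250 bases before to 50 after the start) were at hand for 33 of the 41, without BIRC5, BUB3, CENPH, CENPJ, CENPL, CENPM, KNTC1 and TTK. The cell cycle homology region (CHR, TTTGAA on either strand, with TTCAAA as its other strand) was in 16 of the 33 (48.5%) and in 15.4% of the 27305 promoters. The CCAAT box (CCAAT, with ATTGG as its other strand) was in 21 of the 33 (63.6%) and in 35.7% of all promoters, and both motifs were in 12 (36.4%) and in 6.08%. Windows of 30 bases with the CHR in capitals are shown for a pair of genes with lower levels with the plasmids (KIF11 and CENPC) and a pair without (CDCA8 and BUB1B).
KIF11: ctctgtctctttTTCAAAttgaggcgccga
CENPC: tgtgtctccgggTTCAAAcccaggcacagg
CDCA8: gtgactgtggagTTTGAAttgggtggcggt
BUB1B: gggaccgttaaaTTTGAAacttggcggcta
In GRCh38.p14 they lie at chr10:92593090-92593119 for KIF11 (plus strand, motif from 28 bases upstream), chr4:67545576-67545605 for CENPC (minus strand, motif from 90 bases upstream), chr1:37692481-37692510 for CDCA8 (plus strand, motif from 23 bases upstream) and chr15:40161034-40161063 for BUB1B (plus strand, motif from 23 bases upstream). The CHR was in 7 of the 11 promoters at hand for members past the threshold in Long against EV, and in 9 of 22 for the others. This difference was not tested. A match of letters is a description and not a binding site.

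Other genes of mitosis, listed by function, were read from the same fit, in which 22.0% of all genes had an unadjusted p under 0.05 for Short against EV and 7.54% for Long against Short, and in which 8.32% passed for Long against EV and 36.4% between passages. Of 17 further kinetochore and centromere genes, 0 passed for Short against EV (6 at an unadjusted p under 0.05 from limma), 0 for Long against Short (4 unadjusted) and 5 for Long against EV, all lower, among them KNL1, the scaffold of the outer kinetochore, and SGO2, which protects cohesin at the centromere. KNL1 was 7.57, 6.97 and 11.5 FPKM in EV, 3.64, 5.34 and 8.64 in Short and 3.31, 3.13 and 7.71 in Long. Of 28 mitotic regulators and other mitotic kinesins, 0 passed for Short against EV (11 unadjusted), 0 for Long against Short (7 unadjusted) and 9 for Long against EV, all lower, among them ASPM, KIF20B and TOP2A. ASPM was 15.4, 13.2 and 23.4 FPKM in EV, 5.12, 9.59 and 18.5 in Short and 3.30, 3.40 and 13.6 in Long. Not all of the list was lower: CDC20, CCNB2 and KIF20A had every plasmid library above every EV library. CDC20 was at most 99.6 FPKM in EV and at least 104 FPKM with either plasmid. Over all genes, 10.9% lay wholly above EV in Short and 10.5% in Long. Of 17 genes of the anaphase-promoting complex and its partners, 0 passed for Short against EV (6 unadjusted) and for Long against Short (0 unadjusted), and for Long against EV CDC27 was lower and ANAPC15 higher. Of 19 cohesin and condensin genes, 0 passed for Short against EV (11 unadjusted) and for Long against Short (7 unadjusted) and 10 for Long against EV, all lower, with SMC2 at 21.4, 18.7 and 31.8 FPKM in EV, 9.86, 15.3 and 29.6 in Short and 8.18, 7.26 and 23.2 in Long. Between passages 7 of the 17 kinetochore partners, 15 of the 28 regulators, 6 of the 17 anaphase-promoting genes and 14 of the 19 cohesin and condensin genes passed. The median log2 fold change for Long against EV was 7.60e-05 over the partners, -0.03 over the regulators, 0.07 over the anaphase-promoting genes and -0.28 over cohesin and condensin, beside 0.04 over all genes.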

How the data were processed

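RNA-seq libraries were prepared from polyA RNA with a stranded kit and read as pairs. Reads were aligned by the authors first to the transcripts of Ensembl, the remainder to hg19, with TopHat (version 1.4.1), and the submitters' processing notes also name Cufflinks. The values deposited are FPKM for each Ensembl gene in each library, replicates kept apart. Whether counting used the strand is not given in the sources used here. Without strand, reads of overlapping genes cannot be told apart, and 19 members overlap no other annotated gene.

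The test of log2(FPKM + 1) used limma (version 3.58.1, R version 4.3.3; lmFit, eBayes with a trend) over 13801 genes whose mean reached 1 FPKM, with group and replicate number (the cell passage) in 1 fit of the 9 libraries and Benjamini-Hochberg adjustment at 0.05. Same-numbered libraries of different groups had a mean correlation of 0.55 in their deviations from the group mean (9 pairs, 0.33 to 0.81). Pairs with different numbers had a mean of -0.26 (18 pairs, -0.63 to 0.37), so the ranges overlap. Such deviations cancel within a group, so both kinds of pair are not independent. The replicate number was kept as a block for these correlations and because the methods state that transfections were repeated in different passages. Whether passages are independent cultures beyond this is not stated, so p-values measure the spread between these libraries. The fit was also run on simulated data, with the fitted passage effects and independent noise for each gene. Other shifts shared by many genes, such as those by GC content, were not simulated. Symbols, lengths and GC content came from GENCODE v44 lifted to GRCh37, which matched 47578 identifiers (87.2%), using the longest transcript. No counts are given, so no intervals for depth were computed.

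The members and lists were chosen with earlier results of these data known. All members are named, with values in every library for the kinetochore modules, checkpoint, passenger and kinesin genes and for members that passed between passages. Alternatives were other pseudocounts and scalings, no block, no trend, fewer groups, other filters, each replicate left out, and loess corrections (span 0.3) for GC content and length.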

Additional observations from a re-analysis of the deposited data

How the results depend on the processing

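The counts of members past the threshold for Short against EV and for Long against Short were 0 under every alternative run. Over all genes, Short against EV gave 5 genes in the fit reported and 3 without a trend, with a minimum mean of 5 FPKM, with the GC correction and with the GC and length correction, 2 to 59 with a replicate left out, and 1 without a filter. Long against Short gave 1 gene, 3 with only the compared groups in the fit, 0 without a trend or without a filter, and 0 to 9 with a replicate left out. Long against EV gave 1148 genes (873 lower), 752 with only the compared groups, 646 without a trend, 1 without a filter, 164 with the GC correction, 142 with the GC and length correction and 2 to 1031 with a replicate left out. With FPKM rescaled to an equal sum 1217 of 1274 genes were lower, and with median-ratio scaling 1105 of 1240. The 13 members for Long against EV became 0 without a filter, 2 with the GC correction, 2 (CENPF and NUF2) with the GC and length correction, and 0 to 10 with a replicate left out. Between passages 5028 genes became 2861 without a filter, 4133 with the GC correction, 4203 with the GC and length correction and 30 to 4749 with a replicate left out. The 22 members became 13 without a filter, 12 with the GC correction, 13 with the GC and length correction and 0 to 22 with a replicate left out. The cause of these changes was not tested.

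Without the replicate block, which the pairing by passage supplies, limma called 2 genes for Short against EV, 0 for Long against Short and 2 for Long against EV, and 0 of the 41 members in the last.

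The median over the members was -0.090 for Short against EV and -0.059 for Long against EV with an equal sum, 0.013 for Long against Short with the length correction, and for Long against EV -0.023 with median-ratio scaling, -0.020 with the GC correction, -0.024 with both corrections and -0.023 to 0.018 with a replicate left out. The median of the longer members minus that of the shorter was -0.20 for Short against EV and -0.38 for Long against EV by coding length. By longest transcript it was -0.14 for Short against EV, and -0.10, -0.082 and -0.10 after the GC, length and joint corrections. CENPK for Short against EV turned from -0.22 to 0.00 (0.0039) with the GC correction. A tally of single values took members with an unadjusted p under 0.05 from limma for Short against EV or Long against Short. It added members that passed between passages, and CENPE alone for Long against EV. Under the alternatives 597 values were counted as unchanged in side of the threshold and any direction, 72 lost the threshold and 1 turned. All 72 were between passages. No value for Short against EV or Long against Short had passed in the fit reported, so none of those could lose the threshold. The 597 are therefore no measure of how stable the calls were. For CENPE in Long against EV the count used its size and not the threshold. It fell outside the threshold without passage 1, without the block, without a filter and with the GC correction, alone or with length.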
